A study of Homo sapiens with 8 samples.

Results

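The NRF2 pathway antioxidant genes described here are 9 of the 60558 genes with an FPKM value in every library: NFE2L2, KEAP1, HMOX1, NQO1, GCLC, GCLM, TXNRD1, SRXN1 and OSGIN1. They were taken by gene symbol, each symbol matched 1 gene, and all 9 passed the minimum of 1 FPKM in at least 2 libraries that 14206 genes passed. FPKM counts fragments per kilobase of a transcript relative to all fragments mapped in the library, so levels can be set side by side between genes. RNA-seq had been done on 2D hIECs, cells differentiated toward intestinal epithelium through definitive endoderm and hindgut stages. The starting cells were H9, an embryonic stem cell line of human origin in wide use. Normal hIECs received neither cytokines nor particles, and normal hIECs with PM10 received 100 µg/ml of a reference PM10 dust, that is particulate matter of the size class inhaled from polluted air, for 7 days. Inflamed hIECs were kept with TNFα (50 ng/ml) and IFNγ (50 ng/ml) over 10 days, and inflamed hIECs with PM10 had the same cytokines plus the particles in the last 7 days. Each group had 2 libraries and all came from 1 cell line. No source used here says that they were separate differentiations, so the p-values measure only the spread between these libraries, which may be technical.

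NFE2L2 encodes NRF2, a transcription factor that is held in the cytoplasm and passed to degradation by KEAP1, an adaptor of a cullin 3 ubiquitin ligase. Electrophiles and oxidants modify cysteines of KEAP1, NRF2 then accumulates, pairs with a small MAF protein and binds antioxidant response elements near its target genes. In the intestine, as in liver and airway, these targets serve the detoxification of reactive compounds. NQO1 reduces quinones, HMOX1 breaks down heme, GCLC and GCLM form the enzyme that starts glutathione synthesis, TXNRD1 reduces thioredoxin, SRXN1 repairs overoxidised peroxiredoxins, and OSGIN1 is an oxidative stress induced growth inhibitor. Because NRF2 is controlled mainly through protein stability, the RNA level of NFE2L2 is not a measure of its activity.

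The core of the antioxidant response element can be written TGACNNNGC, and windows that hold it are shown because NRF2 is known to act on this family through such elements. They are those of NQO1, GCLM, TXNRD1 and OSGIN1, which rose with cytokines, and of GCLC, the partner of GCLM that was not called. The 1000 bases before each RefSeq start in GRCh38.p14 were searched on both strands, and 11190 of 35116 windows (31.9%) held at least 1 match. There was an entry for 8 of the 9 genes, all but HMOX1, and 7 of their 11 start windows held a match. Each line gives 29 bases, 5′ to 3′ on the strand of the gene, with the match in capitals.
NQO1: gcagtcacagTGACTCAGCagaatctgag
GCLM: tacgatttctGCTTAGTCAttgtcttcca
TXNRD1: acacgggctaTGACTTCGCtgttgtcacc
OSGIN1: agacaatctgTGACTTGGCcccagttttc
GCLC: acaggtcattGCTCTGTCAacacatattt
The NQO1 window lies at chr16:69726997-69727025 (minus strand), 455 bases before the start, and overlaps an exon of the divergent transcript NQO1-DT. For GCLM the window is chr1:93909446-93909474 (minus strand), with the match 34 bases before the RefSeq start, on the opposite strand. That window overlaps the annotated start of GCLM at 93909456 and reaches upstream of it. For TXNRD1 it is chr12:104215670-104215698 (plus strand), 99 bases before the first start and in no annotated gene. A second TXNRD1 start held another match 102 bases upstream, at chr12:104286920-104286948. The OSGIN1 window at chr16:83952673-83952701 (plus strand), 557 bases before the start, is intronic in OSGIN1. The GCLC window at chr6:53545953-53545981 (minus strand), 870 bases before the start and on the opposite strand, is intronic in GCLC, whose level did not pass the test in any comparison. One of the KEAP1 starts held 2 matches and the other none, and no match was found before either NFE2L2 start or the SRXN1 start. A match is a string of letters and not a measured binding site.

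The identity of the cells was checked against marker lists. Of 16 intestinal epithelial markers, 10 to 12 were at 0 in both libraries of each group, among them CDX2, VIL1, MUC2, LYZ and CHGA. All 12 mesenchymal markers were above 0, with summed levels of 5230 to 5300 FPKM in normal hIECs, 4540 to 4600 FPKM with PM10, 5960 to 6020 FPKM in inflamed hIECs and 5440 to 5500 FPKM in inflamed hIECs with PM10. The 9 general epithelial markers, of which 4 or 5 were at 0 in each group, summed to 641 to 651, 598 to 635, 347 to 352 and 287 to 305 FPKM in the same order. The 8 neuronal markers summed to 205 to 213, 224 to 231, 123 to 124 and 138 to 141 FPKM, and the 8 macrophage markers to between 0.399 and 3.87 FPKM, with CD14, CD163, CSF1R, ITGAM and MRC1 at 0. The sums hide changes in both directions. In the test described below, 5 of the 12 mesenchymal markers were called higher and 5 lower with cytokines without PM10. With PM10 present in both groups, 6 were called higher and 6 lower. Of all genes tested, 56.2% and 65.4% were called in these 2 comparisons. With PM10, 1 of the 12 was called higher and 3 lower in normal hIECs, and 1 higher and 7 lower in inflamed hIECs. Beside these stood 9.23% and 15.2% of all genes tested. The difference between the 2 PM10 effects, tested as an interaction, was called higher for 3 of the 12 and lower for 5, beside 6.6% of all genes tested. The values thus come from cells that carry the label hIEC but whose FPKM were 0 for most of the listed intestinal markers. LGR5, SOX9 and KLF5 of that list were above 0 in every library. The study itself reported CDX2, VIL1, MUC2, LYZ and CHGA in its 2D hIECs by PCR and staining. The part of the marker shifts in the differences below was not tested. In bulk RNA, fewer cells of a type and less RNA per cell cannot be told apart.

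No read counts were used, so the depth is unknown. The lowest value above 0 was 0.1636 to 0.2285 FPKM across the 8 libraries. Genes of the mitochondrial genome took 15.5% to 24.2% of the FPKM sum, with the highest share in replicate 2 of normal hIECs. Over the 14206 genes, the SD of a pair of libraries of 1 group had a median of 0.0854 in normal hIECs and 0.0489 to 0.0527 in the other groups, on the log2(FPKM + 1) scale on which all tests were made. This scale understates changes of genes near or under 1 FPKM, which concerns OSGIN1 and GCLM. Differences were tested with limma, with adjusted p-values under 0.05 as the threshold. An exact two-sided permutation test of 2 libraries against 2 cannot give a p-value below 0.333 and was not informative.

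**Figure D1:**
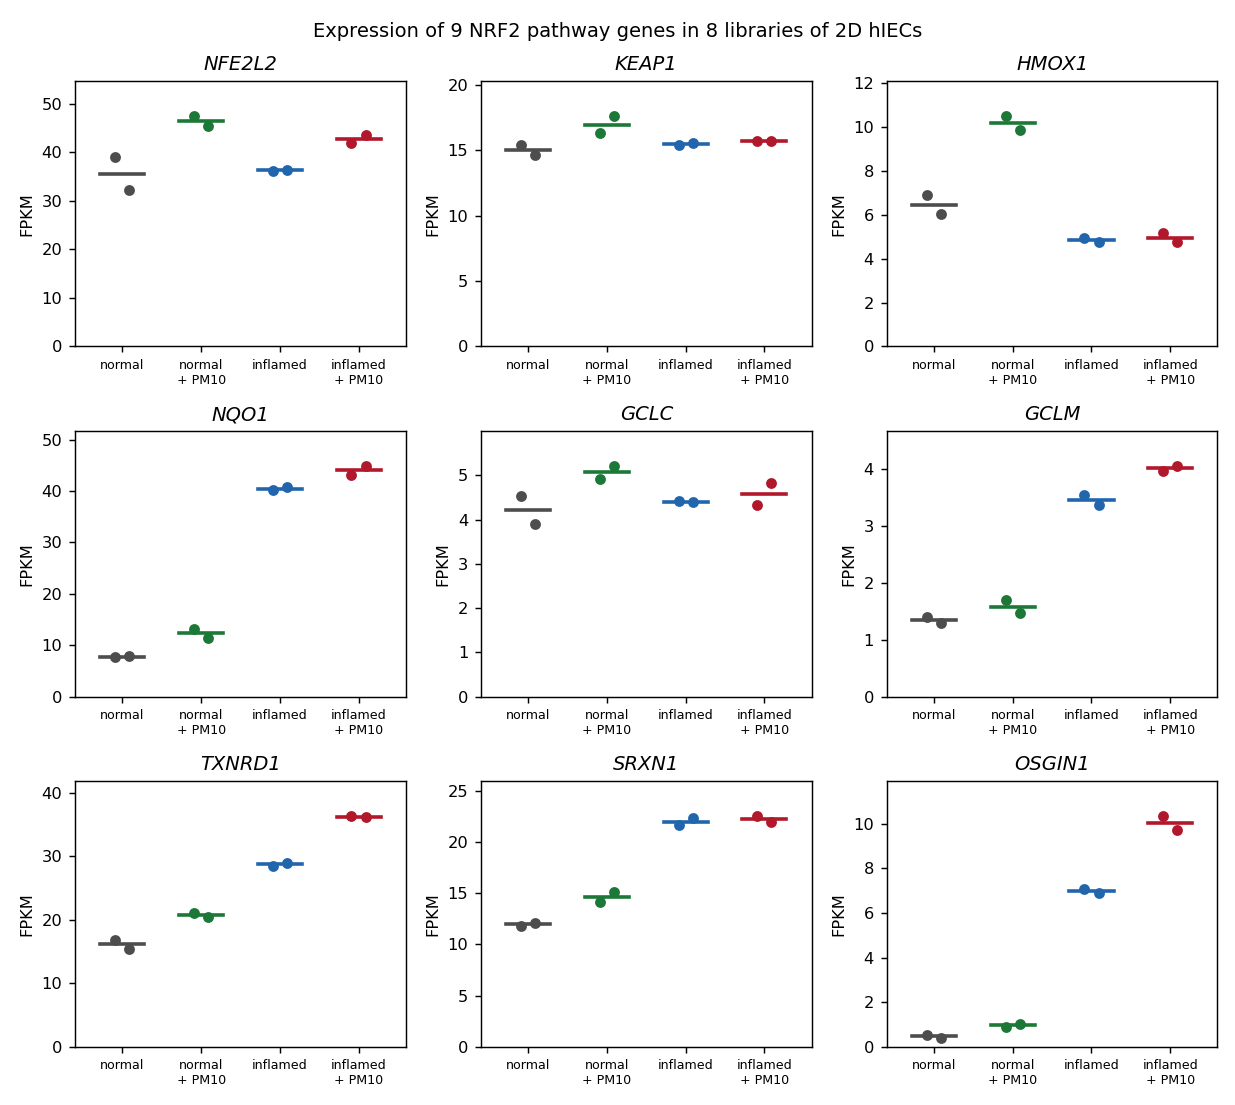
FPKM of the 9 genes in each library (points) with the mean of each group of 2 libraries (lines), on a linear axis from 0 that differs between panels. OSGIN1, NQO1, GCLM, TXNRD1 and SRXN1 are higher in all 4 libraries with cytokines than in all 4 without, while HMOX1 is lower in all 4 with cytokines.

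The first question was how the 9 genes differed with PM10 in cells without cytokines. NFE2L2, HMOX1, NQO1, TXNRD1, SRXN1 and OSGIN1 rose, by 1.22 to 2.04 times in mean FPKM. KEAP1, GCLC and GCLM did not pass the test. Higher calls thus took 6 of 9 genes, where 9.23% of all genes tested were called, 5.51% higher and 3.72% lower, and the median difference of the 9 was 0.35 on the log2 scale, against 0.06 for all genes tested. The 6 calls depended on the shared estimate of the spread. With only the 2 groups compared none was called (adjusted p from 0.107 to 0.169), without replicate 1 or 2 of normal hIECs with PM10 there were 1 and 2, without replicate 2 of normal hIECs there were 3, and without any one of the inflamed or inflamed PM10 libraries there were 3.

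With PM10 in inflamed hIECs, OSGIN1 and TXNRD1 rose and no gene fell. The 2 of 9 called higher stood beside 15.2% of all genes tested that were called, 6.22% higher and 9.02% lower, and the median difference of the 9 was 0.12 against -0.01 for all genes. With only the 2 groups compared, NFE2L2 was called as well, which made 3 of 9, beside 2108 of the 14206 genes tested. The same setting gave 0 of 9 in normal hIECs, so the order of the 2 PM10 counts, 6 and 2 in the main fit, was reversed. Without replicate 1 or 2 of the inflamed libraries, or without replicate 1 of inflamed hIECs with PM10, neither was called, and without replicate 2 of the latter only OSGIN1 was.

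The cytokines were compared with no cytokines, first without PM10. OSGIN1, NQO1, GCLM, SRXN1 and TXNRD1 rose by 1.78 to 14.8 times in mean FPKM, and HMOX1 fell to 0.749 times its mean in normal hIECs. Of all genes tested, 56.2% were called, 25.9% higher and 30.3% lower, so most genes moved with the cytokines and a call by itself sets these 9 little apart. By size, OSGIN1 and NQO1 lay above 99.2% and 99.0% of all genes tested, and GCLM, SRXN1 and TXNRD1 above 93.9% to 95.3%. With PM10 present in both groups, the 5 genes again rose, HMOX1 again fell, and 65.4% of all genes tested were called, 25.8% higher and 39.6% lower. The median over all genes tested was -0.11 in this comparison, and the median over the 9 was 0.58. Both cytokine comparisons share libraries with the PM10 comparisons, so the 4 sets of values are not independent of each other.

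**Figure D2:**
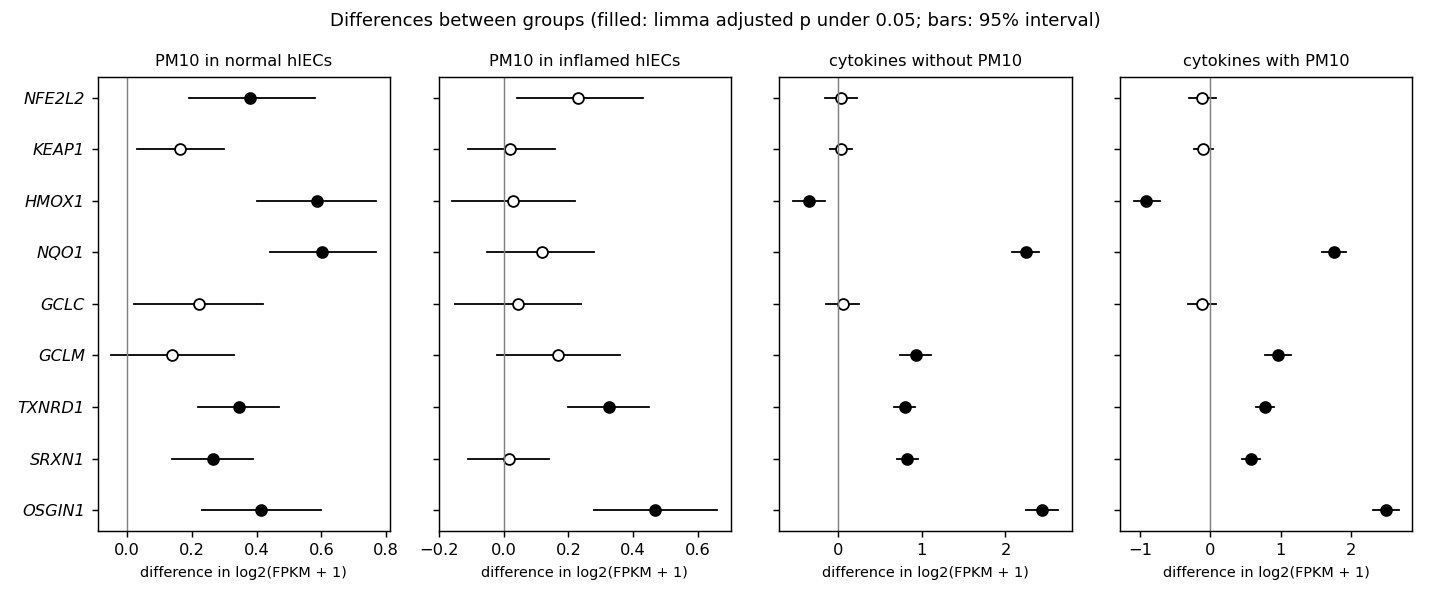
Differences in log2(FPKM + 1) of the 9 genes (points) with their 95% intervals (bars) in 4 comparisons, with filled points for a limma adjusted p-value under 0.05 and a separate x axis in each panel. The PM10 differences lie between 0.02 and 0.60, and the cytokine differences reach 2.44 and 2.49 for OSGIN1 while those of NFE2L2, KEAP1 and GCLC lie near 0.

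NFE2L2 (chr2:177218667-177392756, minus strand), the gene of NRF2 itself, was the most abundant of the 9 in the 4 libraries without cytokines, and NQO1 in the 4 with cytokines. Its level was 38.9 and 32.2 FPKM in normal hIECs, 47.5 and 45.4 FPKM with PM10, 36.1 and 36.4 FPKM in inflamed hIECs, and 41.8 and 43.6 FPKM in inflamed hIECs with PM10. Both PM10 groups stood above both groups without PM10, and the normal and inflamed groups without PM10 overlapped. With PM10 in normal hIECs the difference was 0.38 ± 0.084 (SE) on the log2 scale, adjusted p = 0.0355 by limma. That call held in 7 of 17 alternatives. Without any single library other than replicate 1 of normal hIECs it was lost (adjusted p = 0.0514 to 0.17), with a difference of 0.25 without replicate 2 of normal hIECs. In inflamed hIECs the PM10 difference was 0.23 (95% interval 0.04 to 0.43, adjusted p = 0.104 by limma), and 0.20 to 0.26 without 1 library. It was called in 3 of 17 alternatives, among them the fit of only the 2 groups compared. The cytokine differences were 0.03 (95% interval -0.16 to 0.23) without PM10 and -0.12 (-0.31 to 0.08) with PM10. The first of these was called at 0.16 without replicate 1 of normal hIECs (adjusted p = 0.0356) and was -0.10 without replicate 2. The annotated span of NFE2L2 shares exon bases with AGPS, at 6.58 to 8.58 FPKM, and HNRNPA3, at 75.2 to 96.1 FPKM, and the reads carried no strand, so some reads may have been split between these genes.

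KEAP1 (chr19:10486125-10503558, minus strand), the inhibitor of NRF2, had no call in any comparison. It was at 15.4 and 14.7 FPKM in normal hIECs, 16.3 and 17.7 FPKM with PM10, 15.4 and 15.5 FPKM in inflamed hIECs, and 15.7 and 15.7 FPKM in inflamed hIECs with PM10. The normal libraries with PM10 were the highest of the 8. The PM10 difference in normal hIECs was 0.16 (95% interval 0.03 to 0.30), which did not pass limma's test after adjustment over all genes (adjusted p = 0.115), and the other 3 differences lay between -0.10 and 0.04. The ratio of NFE2L2 to KEAP1 within a library was 2.52 and 2.2 in normal hIECs, 2.91 and 2.57 with PM10, 2.34 in both inflamed libraries, and 2.66 and 2.78 in inflamed hIECs with PM10.

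NQO1 (chr16:69706996-69726668, minus strand), the quinone reductase, was at 7.62 and 7.96 FPKM in normal hIECs and at 13.2 and 11.5 FPKM with PM10. It was at 40.2 and 40.8 FPKM in inflamed hIECs and at 43.2 and 44.9 FPKM in inflamed hIECs with PM10. None of the 4 groups overlapped. PM10 in normal hIECs gave 1.59 times the mean FPKM (1.44 to 1.74 over library pairs), a log2 difference of 0.60 ± 0.07 with adjusted p = 0.00484 by limma, and this call held without each library in turn. The cytokines gave 5.2 times the mean (5.05 to 5.35 over library pairs) without PM10, from 7.79 ± 0.24 to 40.5 ± 0.40 FPKM (SD, n = 2), and 3.56 times with PM10. The log2 differences were 2.24 (adjusted p = 4.12e-07) and 1.76 (adjusted p = 9.25e-07). In inflamed hIECs the PM10 difference was 0.12 (95% interval -0.05 to 0.28, adjusted p = 0.286). In FPKM the PM10 difference was 4.57 in normal hIECs and 3.54 in inflamed hIECs, so the gap between the 2 effects is smaller on the linear scale than on the log2 scale.

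HMOX1 (chr22:35380361-35394214, plus strand), heme oxygenase 1, was higher with PM10 in normal hIECs, as was NQO1, but lower with cytokines. Its level was 6.90 and 6.02 FPKM in normal hIECs, 10.5 and 9.86 FPKM with PM10, 4.94 and 4.75 FPKM in inflamed hIECs, and 5.17 and 4.75 FPKM in inflamed hIECs with PM10. The normal libraries with PM10 were the highest, the 4 libraries with cytokines were the lowest, and the inflamed groups with and without PM10 overlapped. PM10 in normal hIECs gave 1.58 times the mean FPKM (1.43 to 1.75 over library pairs, log2 difference 0.59 ± 0.08, adjusted p = 0.0083), and without replicate 1 of normal hIECs with PM10 the difference was 0.54 with adjusted p = 0.0696. PM10 in inflamed hIECs gave 0.03 (95% interval -0.16 to 0.22). HMOX1 fell by 0.35 with cytokines alone (adjusted p = 0.00742) and by 0.91 with cytokines when PM10 was present in both groups (adjusted p = 4.83e-05), down to 0.487 times the mean of normal hIECs with PM10. The ratio of NQO1 to HMOX1 within a library was 1.1 to 1.32 in the 4 libraries without cytokines and 8.15 to 9.45 in the 4 with cytokines.

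GCLC and GCLM, the catalytic and the modifier subunit of glutamate cysteine ligase, did not move together. GCLC (chr6:53497341-53616970, minus strand) was at 4.53 and 3.89 FPKM in normal hIECs, 4.92 and 5.21 FPKM with PM10, 4.42 and 4.39 FPKM in inflamed hIECs, and 4.33 and 4.83 FPKM in inflamed hIECs with PM10. Its normal, inflamed and inflamed PM10 libraries overlapped, and only normal hIECs with PM10 stood above the rest. The PM10 difference in normal hIECs was 0.22 (95% interval 0.02 to 0.42, adjusted p = 0.133), and the other differences were 0.04, 0.06 and -0.12. GCLM (chr1:93885199-93909456, minus strand) was at 1.41 and 1.29 FPKM in normal hIECs, 1.70 and 1.46 FPKM with PM10, 3.55 and 3.36 FPKM in inflamed hIECs, and 3.96 and 4.06 FPKM in inflamed hIECs with PM10. The 4 groups did not overlap. The cytokines gave GCLM 2.57 times the mean FPKM without PM10 (2.39 to 2.76 over library pairs) and 2.53 times with PM10, with log2 differences of 0.93 and 0.96 (adjusted p = 6.33e-05 and 3.92e-05). Its PM10 differences were 0.14 (95% interval -0.05 to 0.33) in normal hIECs and 0.17 (-0.02 to 0.36) in inflamed hIECs, and neither passed. The ratio of GCLM to GCLC within a library was 0.281 to 0.347 in the 4 libraries without cytokines and 0.766 to 0.916 in the 4 with cytokines.

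TXNRD1 (chr12:104215779-104350307, plus strand), cytosolic thioredoxin reductase, was called in all 4 comparisons between groups, as was OSGIN1. It was at 16.8 and 15.5 FPKM in normal hIECs, 21.1 and 20.4 FPKM with PM10, 28.5 and 29.0 FPKM in inflamed hIECs, and 36.4 and 36.2 FPKM in inflamed hIECs with PM10. The 4 groups stood apart in that order. PM10 gave 1.29 times the mean FPKM in normal hIECs (log2 difference 0.35, adjusted p = 0.0135) and 1.26 times in inflamed hIECs (0.32, adjusted p = 0.00984). The call in normal hIECs was lost without either library of normal hIECs with PM10 (adjusted p = 0.0923 and 0.0697), and the call in inflamed hIECs without any one of the 4 libraries with cytokines (adjusted p = 0.059 to 0.0677). The cytokines gave 1.78 times without PM10 and 1.75 times with PM10 (0.80 and 0.78).

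SRXN1 (chr20:646615-653200, minus strand), sulfiredoxin, was at 11.8 and 12.1 FPKM in normal hIECs and at 14.1 and 15.1 FPKM with PM10. It was at 21.7 and 22.3 FPKM in inflamed hIECs and at 22.5 and 22.0 FPKM in inflamed hIECs with PM10, and those last pairs overlapped. PM10 in normal hIECs gave a log2 difference of 0.26 (adjusted p = 0.0292), which passed without replicate 1 of normal hIECs but not without any other single library (adjusted p = 0.0593 to 0.149). In inflamed hIECs the PM10 difference was 0.02 (95% interval -0.11 to 0.14). The cytokines gave 1.84 times the mean without PM10 and 1.53 times with PM10 (0.82 and 0.58, adjusted p = 1.59e-05 and 6.78e-05). SRXN1 shares exon bases with the unnamed gene ENSG00000270299, listed at 0 to 0.865 FPKM.

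OSGIN1 (chr16:83931311-83966332, plus strand) had the widest range of the 9 as a ratio of its highest to its lowest level, while NQO1 had the widest in FPKM. It was at 0.529 and 0.413 FPKM in normal hIECs, 0.886 and 1.04 FPKM with PM10, 7.05 and 6.90 FPKM in inflamed hIECs, and 10.4 and 9.72 FPKM in inflamed hIECs with PM10. The groups did not overlap, and the libraries with cytokines were all above those without. The cytokines gave 14.8 times the mean FPKM without PM10 (13 to 17.1 over library pairs), from 0.471 ± 0.082 to 6.97 ± 0.11 FPKM (SD, n = 2), and 10.4 times with PM10 (9.38 to 11.7). The log2 differences were 2.44 and 2.49 (adjusted p = 4.96e-07 and 3.45e-07). PM10 gave 2.04 times in normal hIECs (1.68 to 2.51 over library pairs, log2 difference 0.41, adjusted p = 0.0245) and 1.44 times in inflamed hIECs (0.47, adjusted p = 0.0105). The call in normal hIECs was lost without any single library other than replicate 1 of normal hIECs (adjusted p = 0.0529 to 0.127), and the call in inflamed hIECs was lost without replicate 1 or 2 of inflamed hIECs or replicate 1 of inflamed hIECs with PM10 (adjusted p = 0.0621 to 0.0762). OSGIN1 shares exon bases with MLYCD, which stayed between 0.568 and 0.746 FPKM, above OSGIN1 in normal hIECs.

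Whether the PM10 effect differed between normal and inflamed hIECs was tested as an interaction. It was smaller in inflamed hIECs for HMOX1, by -0.56 ± 0.11 on the log2 scale (adjusted p = 0.0323), and for NQO1, by -0.48 ± 0.099 (adjusted p = 0.0333). Among all genes tested, 6.6% had a called interaction, 2.11% higher and 4.48% lower. The other 7 did not pass, with SRXN1 nearest at -0.25 (95% interval -0.43 to -0.07, adjusted p = 0.108). For OSGIN1 the interaction was 0.05 (95% interval -0.21 to 0.32), a value whose sign depends on the pseudocount, since with 0.1 in place of 1 it was -0.38 and was not called either. The interaction was -0.02 (-0.20 to 0.16) for TXNRD1 and -0.15 (-0.43 to 0.13) for NFE2L2. The HMOX1 call was lost without any single library other than those of normal hIECs (adjusted p = 0.0778 to 0.116). The NQO1 call held without replicate 2 of normal hIECs or replicate 2 of normal hIECs with PM10 and was lost without each of the other 6 libraries (adjusted p = 0.0579 to 0.116).

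**Figure D3:**
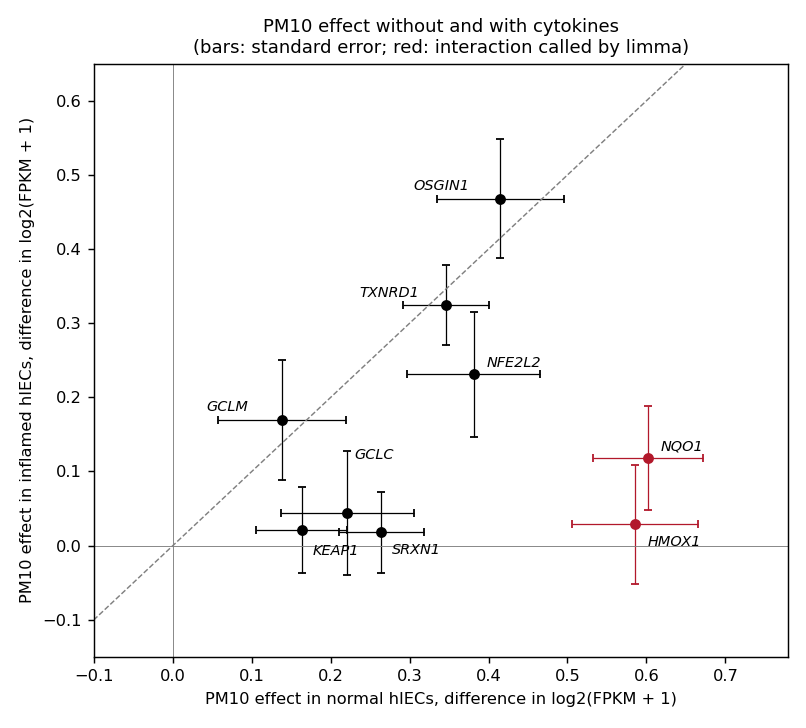
PM10 difference in log2(FPKM + 1) of each gene in normal hIECs (x axis) and in inflamed hIECs (y axis), with standard errors as bars, equal effects on the dashed line and genes with a called interaction in red. OSGIN1, TXNRD1 and GCLM lie within a standard error of the dashed line, while HMOX1 and NQO1 lie below it, at 0.59 and 0.60 in normal hIECs and at 0.03 and 0.12 in inflamed hIECs.

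The rest of the pathway was read from 6 lists with 76 genes, of which 6 were at 0 in every library and 69 were tested, under 70 identifiers since GGT1 has 2. With PM10 in normal hIECs, 8 rose and 3 fell, with a median of 0.01 against 0.06 for all genes tested, of which 5.51% rose and 3.72% fell. With PM10 in inflamed hIECs, 5 rose and 10 fell, beside 6.22% and 9.02% of all genes tested. With cytokines 26 rose and 19 fell without PM10, and 25 rose and 24 fell with PM10. In total this is near the 56.2% and 65.4% of all genes tested that were called. By direction, 25.9% of all genes tested rose and 30.3% fell without PM10, and 25.8% rose and 39.6% fell with PM10. The PM10 count of 11 in normal hIECs was 2 without either library of normal hIECs with PM10, 4 without either library of inflamed hIECs with PM10, 6 without either inflamed library and 7 without replicate 2 of normal hIECs. The PM10 count of 15 in inflamed hIECs was 2 to 4 without any one library with cytokines and 9 without either library of normal hIECs with PM10.

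Among the 16 partners and regulators of NRF2, SQSTM1 had the largest PM10 difference in normal hIECs, and MAFG in inflamed hIECs. It encodes p62, an autophagy adaptor that binds KEAP1. Its level was 51.2 and 52.0 FPKM in normal hIECs, 99.1 and 97.8 FPKM with PM10, 119 and 124 FPKM in inflamed hIECs, and 143 and 144 FPKM in inflamed hIECs with PM10. The groups stood apart in that order. The PM10 difference was 0.92 in normal hIECs (adjusted p = 0.000163) and 0.24 in inflamed hIECs (adjusted p = 0.0121), with an interaction of -0.68 (adjusted p = 0.00178). MAFG, a small MAF partner of NRF2, rose by 0.37 and 0.39 with PM10 in normal and inflamed hIECs and by 0.65 with cytokines. MAFF rose by 1.04 with cytokines and was not called with PM10 (0.18 and 0.13), and MAFK had no call with PM10 (-0.16 and 0.20) or with cytokines alone (0.08). BACH1, the repressor that competes with NRF2 at HMOX1, was at -0.08 and 0.13 with PM10 and at 0.05 with cytokines, none of them called, and at 0.27 with cytokines in the presence of PM10 (adjusted p = 0.0203). CUL3, the cullin of the KEAP1 ligase, was at 0.24 with PM10 in normal hIECs (adjusted p = 0.0901) and at -0.20 with cytokines (adjusted p = 0.054), and fell by 0.44 with cytokines in the presence of PM10. The related factor NFE2L3 rose by 2.25 with cytokines, and NFE2L1 rose by 0.20 and 0.38 with PM10. In all, 4 of the 16 rose with PM10 in normal hIECs, 4 in inflamed hIECs, and with cytokines 8 rose and 1 fell. Of all genes tested, 5.51% and 6.22% rose with PM10 in normal and inflamed hIECs. With cytokines 56.2% of all genes tested were called, 25.9% higher and 30.3% lower. The total cytokine count of this list is thus at the background, but its share of higher calls is larger and that of lower calls smaller.

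The 17 glutathione genes went both ways. None rose with PM10, while 1 fell in normal hIECs (GSTP1, a glutathione transferase, by 0.22) and 6 fell in inflamed hIECs, led by CHAC1, which degrades glutathione (by 0.53), and GSTA4 (by 0.40), beside 3.72% and 9.02% of all genes tested that fell. With cytokines 4 rose and 8 fell, where 25.9% of all genes tested rose and 30.3% fell. SLC7A11, the cystine transporter that feeds glutathione synthesis, rose by 1.03, from 0.456 and 0.544 FPKM to 2.10 and 2.02 FPKM, and the transferases GSTM2, GSTM1 and GSTA4 fell by 1.02, 1.01 and 0.78. The GSTM genes are similar in sequence to differing degrees, so their separate values are uncertain.

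Of the 10 thioredoxin and peroxiredoxin genes, TXNIP, an inhibitor of thioredoxin, rose by 0.30 and TXN2 by 0.19 with PM10 in normal hIECs, and TXNRD2 fell by 0.37 with PM10 in inflamed hIECs. With cytokines 4 rose and 1 fell, a share of calls near the 56.2% of all genes tested. By direction, 25.9% of all genes tested rose and 30.3% fell with cytokines. PRDX1, a peroxide scavenger, rose by 1.28, and PRDX2 fell by 0.79. TXN, the substrate of TXNRD1, was at 168.8 to 201.5 FPKM. Of the 6 NADPH supply genes, which provide the reducing power for NQO1, TXNRD1 and glutathione reductase, none was called with PM10, and 4 rose with cytokines, among them ME1 by 0.54, IDH1 by 0.50 and PGD by 0.37, beside 25.9% of all genes tested that rose.

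Among the 8 heme and iron handling genes, the ferritin light chain FTL had an interaction of the same sign as HMOX1. FTL was at 938 and 941 FPKM in normal hIECs, 1197 and 1246 FPKM with PM10, 1542 and 1559 FPKM in inflamed hIECs, and 1335 and 1340 FPKM in inflamed hIECs with PM10. It rose by 0.38 with PM10 in normal hIECs (adjusted p = 0.00442) and fell by 0.21 with PM10 in inflamed hIECs (adjusted p = 0.0182), with an interaction of -0.59 (adjusted p = 0.00287). Unlike HMOX1 it rose with cytokines, by 0.72, as did the heavy chain FTH1 by 1.19 and BLVRA, the biliverdin reductase downstream of HMOX1, by 0.58. In this list 3 genes rose and 2 fell with cytokines, beside 25.9% and 30.3% of all genes tested. Ferritin genes have many processed pseudogenes, so their values may share reads with copies.

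The 19 detoxification enzyme and export genes had 13 members tested. With PM10 in normal hIECs AKR1C2, an aldo-keto reductase, rose by 0.46, while the carbonyl reductase CBR3 fell by 0.59 and the quinone reductase NQO2 by 0.33. With PM10 in inflamed hIECs PTGR1 rose by 0.28, and AKR1A1 and NQO2 fell by 0.44 and 0.37. With cytokines 3 rose and 7 fell, beside 25.9% and 30.3% of all genes tested, the largest falls being AKR1C3 by 1.87, EPHX1, an epoxide hydrolase, by 1.47, AKR1C2 by 1.24 and the exporter ABCC5 by 1.06. The AKR1C genes are similar in sequence to differing degrees, so their separate values are uncertain. The reductases of this list went both ways with cytokines, since CBR3 and AKR1A1 rose by 0.93 and 0.25.

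**Figure D4:**
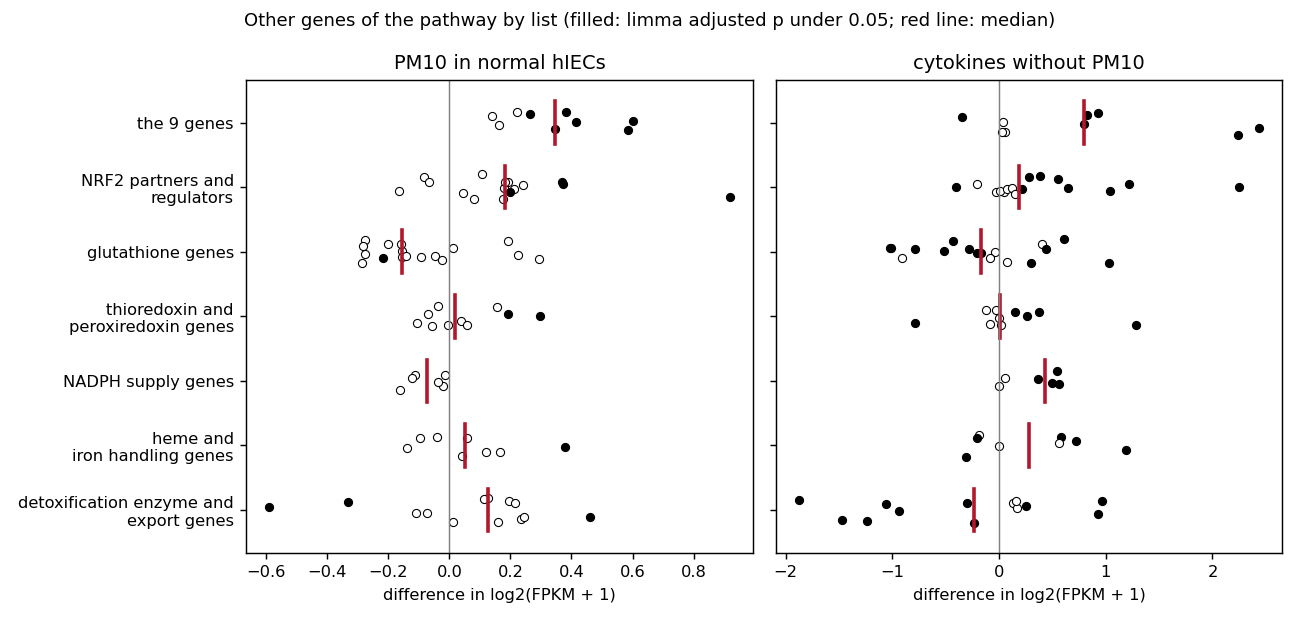
Differences in log2(FPKM + 1) of the 9 genes and of the tested members of 6 other lists (1 point a gene identifier, filled for a limma adjusted p-value under 0.05, red lines for list medians) with PM10 in normal hIECs and with cytokines without PM10. With PM10 the median of the 9 genes is 0.35 and those of the other lists lie between -0.15 and 0.18, and with cytokines the glutathione and detoxification lists have medians of -0.16 and -0.24.

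The 6 aryl hydrocarbon receptor genes are the receptor AHR and genes of its response to polycyclic hydrocarbons, which meets the NRF2 pathway at NQO1. The list had 3 tested members, CYP1B1, TIPARP and AHR. The others were too low to be tested. CYP1A2 was at 0 in every library, CYP1A1 at 0 to 0.515 FPKM, and AHRR at 0 to 1.11 FPKM over both of its identifiers. CYP1B1, a hydrocarbon-metabolising enzyme, was at 6.91 and 5.95 FPKM in normal hIECs, 65.7 and 62.8 FPKM with PM10, 37.6 and 35.7 FPKM in inflamed hIECs, and 254.3 and 254.1 FPKM in inflamed hIECs with PM10. It rose by 3.14 and 2.76 with PM10 and by 2.35 with cytokines. TIPARP rose by 0.56 and 1.09 with PM10. None of the 3 tested members had a called interaction, which does not show that their PM10 effects were equal. On the log2 scale the PM10 difference of CYP1B1 was smaller in inflamed hIECs, as for NQO1 and HMOX1. On that scale TIPARP went the other way, as did AHR, at -0.27 and 0.13 with PM10 in normal and inflamed hIECs, neither called. In mean FPKM the PM10 difference of CYP1B1 was larger in inflamed hIECs, at 218, than in normal hIECs, at 57.8.

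The genes whose pattern over the 8 libraries was most like that of NFE2L2 were DHX9, PPP5C and STIP1, with Pearson correlations of 0.989, 0.984 and 0.982 on the log2(FPKM + 1) scale. For HMOX1 they were CLGN, ZNF280C and LRRC47, at 0.993, 0.992 and 0.990. These are the highest of 14206 genes tested, the libraries fall into 4 groups, and the values are given as a description.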

How the data were processed

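The RNA-seq data cover 8 libraries of 2D hIECs in 4 groups of 2, assigned from the sample labels. The values the authors deposited are FPKM, 1 per gene and library. Per the labels and the methods of the study, unstranded poly-A libraries were sequenced from both ends, adapters were removed with Cutadapt 3.7, reads were trimmed with Sickle 1.33 and aligned to GRCh38 with HISAT2 2.2.1, and FPKM were estimated with StringTie 2.2.0, with no further scaling between libraries. The annotation release is not given in the sources used here. Of the 60558 identifiers, 99.5% were in GENCODE release 44, which gave positions and overlaps. Promoter sequences and starts are from RefSeq (GRCh38.p14).

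The members and the lists were chosen with earlier results of these data known. Values were compared as log2(FPKM + 1), with a pseudocount of 1. The 14206 genes that reached 1 FPKM in 2 or more libraries entered 1 fit of limma 3.58.1 under R 4.3.3 over the 8 libraries, with 4 group means, the trend option and 4 residual degrees of freedom. Benjamini-Hochberg adjustment ran over all genes tested in each of 5 comparisons, with 0.05 as the threshold. Ratios of mean FPKM are on the linear scale, and intervals are 95% intervals without adjustment. Named genes are the 9 members, up to 4 called genes of each list with the largest difference in each comparison, CUL3, BACH1, SQSTM1, MAFF, MAFG and MAFK in any case, and the 3 genes most correlated with NFE2L2 and HMOX1. TXN was named after its values were seen, and 1 gene that the rule names is not reported here. On simulated data with the 14206 genes of the PM10 comparison in normal hIECs, limma called 95 of 100 genes changed by 0.5 and 100 of 100 changed by 1, and 4.4% of its calls were unchanged genes. Each simulated gene had the same spread in all groups. In the data the median SD was 0.0854 in normal hIECs and 0.0489 to 0.0527 in the other groups, so these rates need not hold for the real comparison. Alternatives covered the pseudocount, filters, scaling, the trend, the groups in the fit, the replicate number and each library left out. Tables used pandas 2.3.3 and scipy 1.17.1, and figures matplotlib 3.10.9, under Python 3.11.15.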

Additional observations from a re-analysis of the deposited data

Results flagged for a closer look

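The PM10 effect differed between normal and inflamed hIECs for 4 of the genes described, by limma's test of the interaction. The values on the log2(FPKM + 1) scale were -0.56 for HMOX1, -0.48 for NQO1, -0.59 for FTL and -0.68 for SQSTM1, all with a smaller or opposite PM10 difference in inflamed hIECs. FTL and SQSTM1 were called under every alternative tried, and HMOX1 and NQO1 under 9 and 5 of 16. Called interactions were not limited to these lists. Of the 12 mesenchymal markers 3 were called higher and 5 lower, and of all genes tested 6.6% were called.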

How the results depend on the processing

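The calls of OSGIN1, NQO1, GCLM, SRXN1, TXNRD1 and HMOX1 with cytokines held, with the same direction, in every alternative in which the gene was tested. The PM10 calls and the interaction rested on a spread estimated from 4 residual degrees of freedom, and the depth of the libraries is unknown.

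With only the 2 groups compared, PM10 in normal hIECs gave 0 of the 9 genes, 1 other pathway gene and 23 genes in all (3169 at an unadjusted p under 0.05). In the same setting PM10 in inflamed hIECs gave 3 of the 9 genes and 2108 genes in all (5108 at an unadjusted p under 0.05). With a mean of at least 5 FPKM, PM10 in inflamed hIECs gave 1 of the 9, since OSGIN1 was not tested, and the cytokines gave 4931 genes without PM10 and 5551 with PM10, since 8056 genes were tested. Without the trend, PM10 in normal hIECs gave 7 other pathway genes. The interaction gave 0 of the 9 with no filter on low values (HMOX1 0.0513 and NQO1 0.0514 in adjusted p), and 1, HMOX1, with median centring, quantile normalization, no trend or the replicate block. Median centring changed the share of higher calls with PM10 in normal hIECs from 59.7% of 1311 to 42.9% of 1312, quantile normalization to 49.8% of 1261, and leaving out mitochondrial genes to 75.1% of 1952. For the interaction the share went from 32% of 937 to 45.7% of 992 and 46.6% of 912 under the first 2. The cause was not tested.

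Leaving out each library in turn gave 1 to 6 of the 9 genes, 2 to 16 other pathway genes and 194 to 2627 of all genes for PM10 in normal hIECs. It gave 0 to 3, 2 to 18 and 675 to 2992 for PM10 in inflamed hIECs, and 0 to 2, 2 to 6 and 263 to 1266 for the interaction. Where it leaves a group with 1 library, that library is assumed to vary like the other groups.

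Among the 9 genes, directions turned only for differences not called in the fit of all 8 libraries. With PM10 in inflamed hIECs, leaving out 1 library gave -0.02 to 0.08 for HMOX1, -0.02 to 0.11 for GCLC and -0.0024 to 0.04 for SRXN1. With cytokines without PM10 it gave -0.10 (without replicate 2 of normal hIECs) to 0.16 (without replicate 1, called) for NFE2L2 and -0.03 to 0.14 for GCLC. The interaction of GCLM was -0.01 with a pseudocount of 0.1 and -0.04 to 0.1 without 1 library, that of TXNRD1 was 0.03 with median centring, 0.03 with quantile normalization and -0.08 to 0.03 without 1 library, and that of OSGIN1 was -0.38 with a pseudocount of 0.1, -0.17 without mitochondrial genes and -0.0031 to 0.11 without 1 library.

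The deviations of same-numbered libraries correlated at -0.00151 to 0.0793, so any shared effect of the replicate number was weak. Whether same-numbered libraries had a common origin is not given in the sources used here, and these correlations cannot tell. With the replicate block, PM10 gave 6 and 2 of the 9 genes in normal and inflamed hIECs, the cytokines 6 and 6, and the interaction 1.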
